A study of Homo sapiens with 20 samples.

Results

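The comparison set shDicer cells, a HEK293-derived line in which a short hairpin RNA against DICER1 was switched on, against wild-type cells (wt) by mRNA-seq. It rested on 6 of the 20 samples of the series, with 3 libraries in each group, and the members were chosen by their sample labels alone. HEK293 cells were derived from human embryonic kidney. The labels described the wt samples as wild-type HEK293T cells and the shDicer samples as HEK293 2B cells carrying the Dicer knockdown. All 6 were given doxycycline, the antibiotic that turns on the hairpin cassette, at 3 µg/ml for 7 days, so the controls shared the drug. The study's methods described its hairpin lines as recombinant HEK293T-REx lines with an integrated cassette and gave an induction of 72 h for them. They named one Dicer hairpin line that also carried TAP-tagged Dicer in its cassette, and the labels did not say whether HEK293 2B was that line. The wt and knockdown lines therefore differed by line and by the integrated cassette as well as by Dicer, and these differences cannot be told apart from the knockdown in this design. Nothing in the labels tied the replicates to separate cultures, so the p-values measured the spread between these libraries, which may be technical.

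The libraries were stranded and labelled as polyadenylated RNA, although the protocol named a total RNA kit. They held between 10216400 and 17216000 estimated counts each. The 20 most abundant genes took 16.9 to 18.1% of the counts in wt and 21.3 to 26.7% in shDicer libraries, and shDicer replicate 1 stood farther from its partners than any other library. A list of abundant RNAs without a poly(A) tail, such as 7SL and 7SK, summed to between 120582 and 136885 counts-per-million units (CPM) in wt and between 154088 and 216264 CPM in shDicer libraries, and the part of this difference in the results below was not tested. Below, a gene's level is its CPM, and means ± SD of the 3 libraries of a group are written with wt first and shDicer second. Of 10 genes listed as markers of HEK293 cells 8 could be tested, and by the test described below 5 were higher in shDicer cells (EPCAM, KRT8, KRT18, NEFL and CDH2), 2 were lower (INA and NEFM) and 1 did not pass. Their sum was 525 to 616 CPM in wt and 1126 to 1530 CPM in shDicer libraries, so the listed markers differed between the groups. The one that did not pass was VIM, an intermediate filament protein, at 405 ± 43.2 to 422 ± 64.1 CPM. The call of CDH2 was lost without wt replicate 2 or shDicer replicate 2, and that of INA without wt replicate 1. PAX2 and LHX1, factors of the embryonic kidney, were under the level that allowed a test. Summed markers of leukocytes stayed between 0.874 and 1.44 CPM and those of hepatocytes between 0.313 and 0.980 CPM in all 6 libraries, which left these cell types at or near 0. In bulk libraries fewer cells of a type and less RNA per cell cannot be told apart.

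Dicer is the RNase III enzyme that cuts precursor hairpins into mature microRNAs of about the length of a short guide strand. The mature strand is then loaded into an Argonaute protein, and bases 2 to 8 of it, the seed, pair with sites that lie mostly in the 3′ untranslated region (UTR) of mRNAs and lower their stability and translation. A loss of Dicer therefore bears first on mRNAs that carry seed matches of the microRNAs a cell expresses. The mature strands below are shown because their seeds defined the groups of genes compared further on. They came from RefSeq on GRCh38.p14, are written 5′ to 3′, and carry the seed in capitals.
miR-17-5p: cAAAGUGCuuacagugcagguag
miR-19b-3p: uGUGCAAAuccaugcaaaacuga
miR-92a-3p: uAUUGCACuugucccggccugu
miR-221-3p: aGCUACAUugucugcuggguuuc
let-7a-5p: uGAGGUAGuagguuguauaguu
miR-16-5p: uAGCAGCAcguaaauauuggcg
miR-122-5p: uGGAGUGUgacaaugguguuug
miR-17-5p, miR-19b-3p and miR-92a-3p are cut from 1 long primary transcript, the product of MIR17HG, and miR-221-3p from that of MIR222HG. let-7a-5p and miR-16-5p are widely expressed. miR-122-5p is a liver microRNA, and its seed served as one of 4 seeds of other tissues.

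The targeted gene was read first. DICER1 (chromosome 14, 95086228 to 95158010, on GRCh38) stood at 251, 257 and 232 CPM in wt and 80.6, 94.5 and 88.4 CPM in shDicer cells, and the groups did not overlap (log2 fold change -1.49 ± 0.08, adjusted p = 1.3e-07 by edgeR's quasi-likelihood test with Benjamini-Hochberg adjustment, which gives all adjusted p-values below). If the line carried tagged Dicer, RNA of the cassette and of the endogenous gene could not be told apart in this value. Most other genes of the small RNA pathway did not pass. DROSHA and DGCR8, which form the nuclear complex that releases the hairpin, averaged 39.5 ± 2.87 to 39.1 ± 3.32 CPM and 43.4 ± 1.28 to 36 ± 3.26 CPM, XPO5, which exports it, 187 ± 8.7 to 152 ± 10.5 CPM, and TARBP2 and PRKRA, the partners of Dicer, 36.4 ± 4.44 to 34.5 ± 8.65 CPM and 70.1 ± 3.56 to 80.7 ± 6.62 CPM. None of these 5 passed the threshold, and neither did AGO1, AGO2 or the scaffold TNRC6A. AGO4, an Argonaute without slicing activity, rose. It stood at 27.7, 28.7 and 28.2 CPM in wt and 48.4, 54.1 and 54.5 CPM in shDicer cells (log2 fold change 0.90 ± 0.09, adjusted p = 1.2e-05). Of the 16 machinery genes tested, 1 rose (2 without shDicer replicate 1), and 2 fell, DICER1 among them, and the fall of the second, AGO3, was lost without wt replicate 1 or 3.

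Across the transcriptome, 15090 genes had enough counts for a test. At an adjusted p under 0.001, 15.6% of them were higher and 14.2% were lower in shDicer cells. These shares are the background for the counts of genes below unless another is given. Groups without overlap were common. In 4946 genes every shDicer library lay above every wt library, and in 4767 every one lay below. Genes lower in shDicer cells tended to be abundant. Together the higher genes took 14.2% of the CPM in wt and 25% in shDicer cells, and the lower genes 30.2% and 18%. Among the 5478 genes with a mean log2 CPM of 5 or more 27.1% fell and 13.7% rose, against 7.67% and 19.6% of the 7156 genes with one of 1 to 5. For lists of abundant genes these shares by level are the nearer comparison. Of the lists below, initiation factors (26.9% lower), chaperones (30.4%) and nuclear respiratory chain genes (24.7%) lay near 27.1%. Cytosolic aminoacyl-tRNA synthetases (36.4%) and SR proteins and hnRNPs (42.4%) lay above it. Cytosolic ribosomal proteins (18.5%), small nucleolar RNA host genes (21.4%) and chromatin regulators (23.1%) lay below. The falls were also smaller. Only 688 of the lower genes passed 2-fold, compared with 1566 of the higher ones. Without wt replicate 1, 1436 genes were higher and 1289 lower, the smallest counts of any set that left out 1 library. Where leaving out 1 library moved the count of a list strongly, the count without that library is also given below.

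The changes were not spread evenly over the genome. Genes of chromosome 18 stood at a median of 0.51 on the log2 scale, with 39.9% of 233 genes higher, and those of chromosome 16 a median of -0.34, with 19.6% of 680 lower and 3.24% higher. Chromosomes 4, 11, 13, 20, 21 and X had medians between -0.26 and -0.21, and chromosomes 9 and 15 each had a median of 0.27. The median over all genes was 0.01. On chromosome 19 the median of 0.33 depended on 1 library, since shDicer replicate 1 alone stood at 0.49 and replicates 2 and 3 at 0.19 and 0.19. When each chromosome was cut into runs of about 40 tested genes, 365 in all, 12 runs had a median under -0.50 and 31 a median over 0.50. The lowest run lay on chromosome X from 93670930 to 103587729, with a median of -0.97 and 23 of 40 genes lower. The highest lay on chromosome 19 from 42325609 to 44821421, a region of zinc finger genes, with a median of 1.31 and 26 of 41 genes higher. Chromatin-associated RNA of wt and shDicer cells, described at the end, gave -0.75 and 0.79 over those runs, and its median had the same sign as that of mRNA in 275 of the 365 runs. It did not follow the mRNA on every chromosome. Chromosome 9 had a chromatin RNA median of -0.30 and chromosome 19 one of 0.03, beside 0.39 for chromosome 18 and -0.42 for chromosome 16. For some lists below the median is also given after the median of each gene's own run was subtracted, a step chosen after seeing the data. Other medians moved by this step as well. That of let-7 targets went from 0.14 to -0.01, of TGF-beta and BMP genes from 0.40 to 0.18 and of replication genes from -0.45 to -0.31. Those of genes with miR-25/92 and miR-221 sites went from 0.17 and 0.14 to 0.10 and 0.10. The median of integrins changed little (0.94 to 0.84).

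**Figure D1:**
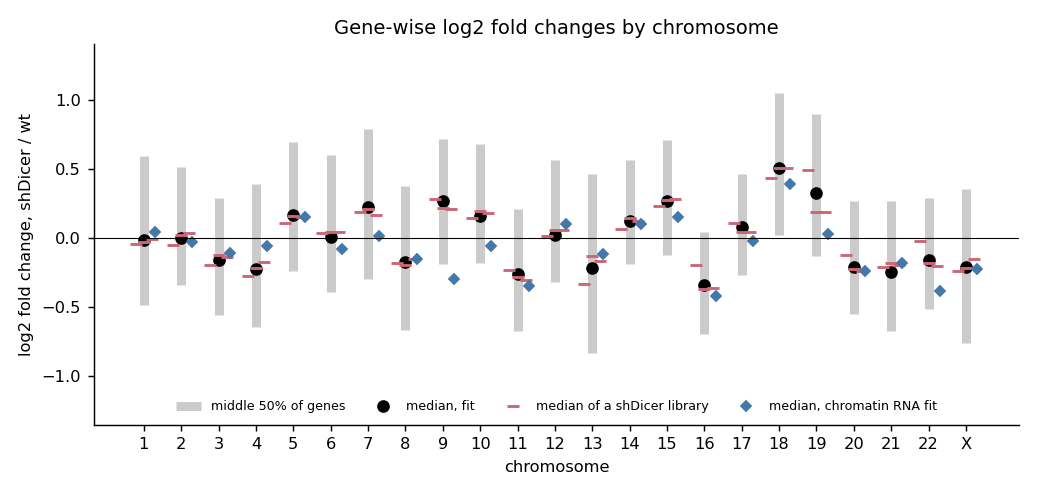
Log2 fold changes of shDicer over wt (y axis) of the tested genes of each chromosome (x axis). Grey bars span the middle 50% of genes, black points are medians of the mRNA fit, red dashes are medians of each shDicer library against the wt mean and blue diamonds are medians of the chromatin RNA fit. Chromosome 18 lies at 0.51 and chromosome 16 at -0.34, and the 3 dashes of chromosome 19 are spread out.

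Genes with seed matches were grouped next. Each gene was represented by the 3′ UTR of its best expressed transcript, and a site was the reverse complement of the seed followed by A, such as GCACTTTA for the miR-17 family, on the sense strand. Of 12587 tested genes with a 3′ UTR, 17.2% were higher and 15.5% lower. The miR-17 family, which includes miR-20 and miR-93, had the largest share of higher genes among the families searched with these 8-base sites. Of its 583 genes, which are 4.63% of those with a 3′ UTR, 27.3% were higher and 11% lower, with a median log2 fold change of 0.16 beside 0.03 for all. After subtraction of the run medians it was 0.18. Genes with a site tend to have long 3′ UTRs, and among all 3760 genes with 2000 bases or more 18.5% were higher, whereas among the 409 of these with a miR-17 site 25.7% were. With 7-base sites, which many more genes carry, the share was 19.99%, below the 21.2% of miR-19, the 20.7% of miR-221 and the 20.2% of miR-25/92. Of the 44 genes with 2 or more of the 8-base miR-17 sites 7 were higher (15.9%), a share under that of all genes with a 3′ UTR.

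The seeds of miR-221, miR-19 and miR-25/92 followed. Of 402 genes with a miR-221 site (ATGTAGCA, in 3.19% of the 3′ UTRs), 24.9% were higher and 16.9% lower. Of 781 with a miR-19 site (TTTGCACA, 6.2%), 21.8% were higher and 13.4% lower. Of 414 with a miR-25/92 site (GTGCAATA, 3.29%), 21.3% were higher and 12.1% lower. The median log2 fold changes of the 3 groups were 0.14, 0.16 and 0.17. For the let-7 family the shares lay near the background, at 17.9% higher and 14.8% lower of 453 genes, as they did for miR-15/16 (17.8% and 16.5%), miR-103 (17.3% and 17.3%) and miR-21 (16.1% and 15.8%). The shares for miR-30 (19.7% higher and 18.4% lower of 1029 genes) and miR-10 (20% and 17.5% of 240) lay above the background in both directions. The 4 seeds of other tissues gave 15.3 to 18.8% higher, the latter for miR-122, whose lower share was also small at 11.3%. Among all genes with a 3′ UTR of 2000 bases or more, 18.5% were higher and 16.9% lower. Within this set the shares were 17.8% and 18.3% for miR-10 and 20.3% and 18.5% for miR-30. The shares higher were 25.6% for miR-221, 20.8% for miR-19, 20% for miR-25/92 and 19.6% for let-7. Small RNA libraries of the series were not analysed here, so the amounts of the mature microRNAs were not set beside these values.

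Both primary transcripts fell. MIR17HG (chromosome 13, 91347686 to 91397592) stood at 174, 179 and 227 CPM in wt and 40.2, 43.1 and 49.4 CPM in shDicer cells (log2 fold change -2.12 ± 0.12, adjusted p = 1.5e-07), and MIR222HG (chromosome X, 45745210 to 45770274) averaged 48.6 ± 8.65 to 1.35 ± 0.843 CPM (log2 fold change -5.10 ± 0.28, adjusted p = 1.7e-07). The groups did not overlap for either gene. Of the 15090 genes tested, 4767 likewise lay lower in every shDicer library than in every wt library. MIR17HG lies in the run of chromosome 13 with the third lowest median of all, -0.70, whereas the run around MIR222HG had a median of 0.14. Both were also lower in chromatin RNA, with log2 fold changes of -1.08 and -2.79.

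The first single genes given here with sites of these families were among the strongest rises. In the whole miR-17 group the median log2 fold change was 0.16, and 11% of the genes were lower. C2CD2, a lipid transfer protein with 2 miR-17 sites, averaged 0.25 ± 0.0776 to 44 ± 0.911 CPM (log2 fold change 7.46 ± 0.19, adjusted p = 7.7e-10). KLHL15, a substrate adaptor of a ubiquitin ligase with 1 miR-25/92 site, stood at 209.8, 219.8 and 210.3 CPM in wt and 987, 1188 and 1129.7 CPM in shDicer cells (log2 fold change 2.37 ± 0.08, adjusted p = 7.0e-09). SOWAHC and MYO5B, an unconventional myosin of vesicle recycling, each with 1 miR-17 site, averaged 10.4 ± 1.33 to 59.4 ± 3.49 CPM and 9.64 ± 1.08 to 58.8 ± 1.79 CPM. These 4 were chosen after their values were seen. All 4 were also higher in chromatin RNA, with log2 fold changes of 4.40, 2.66, 1.51 and 2.15 in the order named. Each carried sites of other seeds too. C2CD2 had a miR-19 site, and KLHL15, SOWAHC and MYO5B a miR-21 site. MYO5B also had sites of miR-15/16 and miR-122 and 2 sites of miR-223, a seed of another tissue. The part of any one seed in these rises was not tested. Of 25 literature targets of the miR-17 family, 9 rose and 1 fell, with median log2 fold change 0.36, but the count rested on single libraries, with a count of 3 without wt replicate 1, 4 without wt replicate 3 and 5 without shDicer replicate 2. CDKN1A, the inhibitor of cyclin-dependent kinases also known as p21, was the highest of them and is described below, while E2F1 averaged 49.7 ± 3.24 to 35.2 ± 6.53 CPM and did not pass. Literature targets of let-7 moved both ways, 8 up and 9 down of 30 (median log2 fold change 0.14), with a count of 4 without wt replicate 1 or 2 and 5 without shDicer replicate 3 for the first count and of 4 without wt replicate 1 for the second. ACVR1C, an activin receptor, rose (4.07 ± 0.30 to 20.4 ± 1.76 CPM) and TRIM71, a regulator of early development, fell (12.2 ± 2.06 to 0.786 ± 0.565 CPM), while LIN28B, which blocks let-7 maturation, averaged 197 ± 4.76 to 227 ± 14.6 CPM and did not pass.

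The largest changes were switches between silence and expression. KRT19, a keratin of simple epithelia, had no count in the 3 wt libraries and stood at 36.9, 29.9 and 27.4 CPM in shDicer cells, at least 115-fold higher over a floor of 3 counts per library. LHFPL4, a partner of inhibitory synapse receptors, likewise went from no count to 21.8 CPM, at least 80.1-fold higher. ERBB4, a receptor of neuregulins, had 2 counts over the wt libraries and averaged 36.1 CPM in shDicer cells, 609-fold, with a 95% counting interval of 168 to 5032. The DNA repair enzyme gene MGMT was at 1 count in wt and at 16.9 CPM in shDicer cells, 553-fold, with a 95% counting interval of 98.9 to 21874, and TLX1, a homeobox gene, at 1 count and 17.1 CPM. RIOX1, a nucleolar oxygenase, and PLP2, a membrane protein on chromosome X, averaged 0.191 ± 0.167 to 45.5 ± 6.2 CPM and 0.145 ± 0.0854 to 34.6 ± 2.09 CPM.

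Genes with the largest falls were of several kinds. SNAI2, a transcriptional repressor of epithelial genes, stood at 35.8, 36.6 and 40.1 CPM in wt and 0.0784, 0 and 0.0596 CPM in shDicer cells, with 2 counts over the shDicer libraries and a ratio of wt to shDicer of 799-fold, with a 95% counting interval of 221 to 6602. SPARC, a collagen-binding matrix protein, fell (39.3, 36.2 and 41.7 CPM in wt and 0.0784, 0.151 and 0.0596 CPM in shDicer cells, log2 fold change -8.56 ± 0.23, adjusted p = 9.0e-10). MMP16, a membrane-bound matrix metalloproteinase, and PXDN, a peroxidase that crosslinks collagen IV, averaged 19.1 ± 1.82 to 0.0857 ± 0.0896 CPM and 18.6 ± 1.26 to 0.0964 ± 0.0485 CPM. BARX1, a homeobox factor, TMEM47, a junction protein, and SERPINF1, a secreted inhibitor of vessel growth, averaged 33.1 ± 2.91 to 0.27 ± 0.135 CPM, 35.7 ± 2.22 to 0.243 ± 0.183 CPM and 19.9 ± 3.64 to 0.325 ± 0.0287 CPM. The microtubule-binding MAP7D2 fell from 19.1 ± 2.0 to 0.157 ± 0.0814 CPM and the nucleosome assembly factor NAP1L3 from 59.2 ± 6.33 to 0.75 ± 0.281 CPM, both from chromosome X. EPCAM, an epithelial adhesion protein, rose. It stood at 2.19, 1.51 and 1.64 CPM in wt and 156, 183 and 181 CPM in shDicer cells (log2 fold change 6.58 ± 0.14, adjusted p = 5.1e-10), and KRT8 and KRT18, the keratins of simple epithelia, averaged 8.83 ± 0.867 to 25.4 ± 4.62 CPM and 29.3 ± 3.07 to 103 ± 3.94 CPM and rose, with 19 and 29.4% of their 31-base words shared with other genes. With KRT19 they were the 3 keratins that rose of 5 tested, and the other 2 did not pass. Of the 10 fibroblast and stromal markers 3 were tested and only ACTA2, smooth muscle actin, was called (2.46 ± 0.135 to 10.6 ± 2.17 CPM), and their sum was 6.61 to 7.29 CPM in wt and 13.6 to 18.5 CPM in shDicer libraries. The part of such cells in the matrix genes below was not tested.

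Some of the largest values could not be read as gene totals. Of 110 genes tested between 28 and 34 Mb of chromosome 6, the major histocompatibility region, 16 changed by more than 16-fold, or 14.5% against 1.95% of all genes. TRIM26, PPP1R11 and VARS2 were among them. The transcript set also held copies of these genes on alternate haplotypes, which the annotation used here does not pair with a gene. An unpaired transcript of 3478 bases, the length of a TRIM26 transcript, averaged 1.57 TPM, the length-scaled unit, in wt and was at 0 in all shDicer libraries. The direction of these genes was therefore not read, and leaving out the whole region gave 2323 higher and 2137 lower genes.

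Of 30 tested genes of the interferon response, 16 rose, 1 fell and 13 did not pass, while 14 more were too low to test (median log2 fold change 1.23, and 1.20 after subtraction of the run medians). PARP14, an ADP-ribosyltransferase, stood at 0.339, 0.36 and 0.205 CPM in wt and 55.2, 66.4 and 67.6 CPM in shDicer cells (log2 fold change 7.67 ± 0.20, adjusted p = 8.4e-10), and PARP12 and PARP9 of the same family averaged 0.0882 ± 0.082 to 21.1 ± 1.12 CPM and 5.67 ± 0.86 to 24.3 ± 3.74 CPM. LGALS3BP, a secreted galectin ligand, stood at 7.3, 8.04 and 10.4 CPM in wt and 287, 185 and 209 CPM in shDicer cells (log2 fold change 4.74 ± 0.19, adjusted p = 1.7e-08). UBE2L6, the enzyme that conjugates ISG15, rose from 0.827 ± 0.234 to 13.4 ± 1.35 CPM. STAT2, a transcription factor of the response, averaged 24.4 ± 3.12 to 35.6 ± 2.88 CPM and did not pass the threshold, nor did the classical target IFIT1 (10.7 ± 0.997 to 12.1 ± 0.632 CPM). EPSTI1 fell (2.7 ± 0.208 to 0.406 ± 0.173 CPM).

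All 4 called Schlafen genes, a family of growth regulators that includes a restriction factor of viruses, rose of 5 tested. SLFN12 averaged 0.0638 ± 0.0556 to 8.25 ± 0.756 CPM, SLFN13 0.298 ± 0.173 to 3.73 ± 0.43 CPM and SLFN5 9.01 ± 1.59 to 27.6 ± 4.88 CPM. Outside the histocompatibility region, the peptide-trimming enzymes ERAP1 and ERAP2 averaged 10.2 ± 0.602 to 27.5 ± 1.53 CPM and 3.6 ± 0.604 to 64.5 ± 10.4 CPM, and B2M, the light chain of class I molecules, 70.6 ± 18.2 to 103 ± 9.1 CPM, the last without passing.

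Among cell surface and matrix genes, more members rose than fell, and many did not pass. Of 16 integrins, the receptors for matrix, 8 rose and the other 8 did not pass. ITGB1, the shared beta chain, stood at 296, 305 and 307 CPM in wt and 574, 692 and 713 CPM in shDicer cells (log2 fold change 1.12 ± 0.09, adjusted p = 1.7e-06), and its partners ITGA4, ITGA5 and ITGA6 averaged 10.8 ± 1.16 to 54.8 ± 6.33 CPM, 17.6 ± 3.35 to 41.7 ± 3.05 CPM and 35.1 ± 2.72 to 120 ± 12.3 CPM. ITGAV averaged 86.4 ± 2.75 to 101 ± 10.2 CPM and did not pass. Collagens counted 9 up and 2 down of 25, the falls numbering 0 without wt replicate 1 and 1 without wt replicate 3 or shDicer replicate 2. The rises centred on collagen IV, the network of basement membranes, with COL4A1 at 26.3 ± 0.673 to 92.9 ± 7.23 CPM, COL4A3 at 0.214 ± 0.138 to 14.6 ± 1.33 CPM, COL4A4 at 0.594 ± 0.228 to 20.5 ± 1.67 CPM, COL4A5 at 23.2 ± 5.12 to 94.1 ± 4.45 CPM and COL4A6 at 8.23 ± 1.36 to 48.6 ± 2.2 CPM. COL14A1, a fibril-associated collagen, rose from 31.3 ± 2.62 to 142 ± 7.52 CPM. Of 10 laminins, also of the basement membrane, 5 rose and 1 fell, with 2 rises when counts were scaled from TPM. LAMB1 rose from 42.9 ± 3.29 to 156 ± 16.4 CPM and LAMA4 from 15.4 ± 0.163 to 55.1 ± 3.66 CPM. The fall was that of LAMA2, at 1.44 ± 0.38 to 0.0596 ± 0.103 CPM, and was lost without any one of 5 libraries. LAMC1 averaged 177 ± 36.8 to 235 ± 50.6 CPM and did not pass.

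Guidance genes that passed the test rose. Of 25 semaphorins, plexins and neuropilins, ligands and receptors that steer growing axons and vessels, 13 rose and the other 12 did not pass (median log2 fold change 1.35, and 0.95 after subtraction of the run medians), with a count of 7 without wt replicate 1 and of 7 with counts scaled from TPM. The ligand SEMA3A stood at 2.35, 2.05 and 2.87 CPM in wt and 15.2, 17.4 and 19.9 CPM in shDicer cells (log2 fold change 2.86 ± 0.18, adjusted p = 3.9e-07), SEMA3C averaged 28.4 ± 0.607 to 80.2 ± 9.36 CPM, and the coreceptors NRP1 and NRP2 19.2 ± 2.59 to 60.8 ± 4.32 CPM and 8.29 ± 2.49 to 26.8 ± 3.17 CPM. PLXNA1 did not pass (27.7 ± 1.17 to 28.5 ± 8.7 CPM). Of 17 ephrins and Eph receptors, a family of contact signals, 7 rose and the other 10 did not pass, with a count of 4 without wt replicate 1. EPHA7 averaged 56.8 ± 1.38 to 137 ± 16.7 CPM and EPHA10 1.7 ± 0.493 to 8.53 ± 2.28 CPM. Protocadherins split, with 6 up and 5 down of 18. PCDH9 fell from 281 ± 28.7 to 34.2 ± 3.09 CPM and PCDH17 from 19.1 ± 4.45 to 0.248 ± 0.104 CPM, both of chromosome 13, and PCDH7 rose from 40.4 ± 6.35 to 99.5 ± 2.6 CPM.

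Among receptors and ligands of growth pathways more members rose than fell. Of 31 Wnt pathway genes 11 rose and 1 fell, with a count of 6 without wt replicate 1. The coreceptor LRP6 averaged 41 ± 1.97 to 67.2 ± 4.28 CPM, the receptor FZD6 43 ± 2.71 to 88 ± 6.36 CPM and the ligand WNT16 0.125 ± 0.0692 to 1.74 ± 0.204 CPM. FZD10 went from 2.71 CPM to no count, at least 12.7-fold lower. Of 23 receptor tyrosine kinases, 9 rose and 2 fell. The rises numbered 5 without wt replicate 1 and 3 with counts scaled from TPM. The falls numbered 1 without wt replicate 1, 2 or 3 or shDicer replicate 1 or 2. DDR2, a collagen receptor, fell (42.9, 46 and 53.2 CPM in wt and 2.51, 1.89 and 2.15 CPM in shDicer cells, log2 fold change -4.44 ± 0.15, adjusted p = 5.8e-09). FGFR1 and IGF1R did not pass. In the TGF-beta and BMP pathway the ligands BMP2 (0.637 ± 0.299 to 7.06 ± 0.30 CPM) and BMP6 (4.09 ± 0.93 to 10.6 ± 1.15 CPM) and the mediator SMAD2 (113 ± 1.28 to 170.0 ± 9.83 CPM) rose, while TGFBR1 averaged 127 ± 10.5 to 117 ± 12.4 CPM without passing. Its count of 9 up and 2 down of 33 was not stable, with a count of 3 without wt replicate 1, 4 without wt replicate 2 or shDicer replicate 3 and 5 without wt replicate 3 or shDicer replicate 2 for the rises and of 0 without wt replicate 1 or shDicer replicate 2 and 1 without wt replicate 2 or 3 or shDicer replicate 1 for the falls.

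Targets of the transcription factors YAP and TEAD, which respond to cell shape, went both ways, 6 up and 6 down of 23. The rises numbered 3 without wt replicate 1 or shDicer replicate 3 and 2 without wt replicate 2. The falls numbered 2 without wt replicate 1 or 2 or shDicer replicate 2. With counts scaled from TPM there were 0 rises and 2 falls. AMOTL2, a partner of YAP, fell from 23.1 ± 1.58 to 7.58 ± 1.57 CPM. Of 27 actin cytoskeleton genes 6 rose and 4 fell. FLNC, a filamin of muscle, fell from 9.02 ± 0.427 to 0.378 ± 0.162 CPM, PLS3 and TPM3, an actin bundler and a tropomyosin, from 1286 ± 11.6 to 759 ± 76.3 CPM and 465 ± 11.1 to 249 ± 9.69 CPM, and TPM4 rose from 116 ± 4.89 to 233 ± 21.7 CPM.

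Targets of p53 had the highest share of risers, 60.7%, among the lists with 20 or more tested members. Of 28 tested, 17 rose and 2 fell (median log2 fold change 1.10, and 1.04 after subtraction of the run medians). CDKN1A, which halts the cell cycle, stood at 3.97, 4.0 and 5.63 CPM in wt and 61.5, 55.1 and 52.7 CPM in shDicer cells (log2 fold change 3.65 ± 0.15, adjusted p = 1.7e-08). FAS and TNFRSF10B, death receptors, averaged 5.83 ± 0.85 to 49.7 ± 6.2 CPM and 38.3 ± 2.81 to 104 ± 3.17 CPM, and EDA2R, a receptor of the same family, 0.887 ± 0.169 to 19.6 ± 0.586 CPM. BTG2, ZMAT3 and SESN1, which restrain growth, averaged 8.87 ± 1.23 to 38.2 ± 4.32 CPM, 19 ± 3.15 to 47.9 ± 5.61 CPM and 35.6 ± 1.25 to 81.3 ± 7.93 CPM, and DDB2 and FDXR, of DNA repair and mitochondrial electron transfer, 11.3 ± 0.95 to 34.6 ± 3.44 CPM and 7.32 ± 1.16 to 28.6 ± 8.2 CPM. BAX and RRM2B averaged 21.3 ± 2.44 to 20.6 ± 4.38 CPM and 95.6 ± 8.04 to 95.9 ± 11.8 CPM and did not pass.

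Some genes of the G1 phase rose, and 45% of the replication genes tested fell. CCND1, cyclin D1, stood at 5.35, 7.2 and 9.01 CPM in wt and 84.5, 74.1 and 80.9 CPM in shDicer cells (log2 fold change 3.49 ± 0.15, adjusted p = 3.1e-08), and the inhibitor CDKN1B, p27, at 27.1, 27.8 and 31.4 CPM in wt and 86.3, 88.4 and 84.9 CPM in shDicer cells (log2 fold change 1.59 ± 0.09, adjusted p = 1.3e-07). Both groups were separate in each case. Of the 17 G1 cyclins, kinases and inhibitors 5 rose and the other 12 did not pass (median log2 fold change 0.07), with CCND2 (167 ± 16.8 to 176 ± 2.59 CPM) and CCNE1 (39.6 ± 0.371 to 29.1 ± 2.34 CPM) among the latter. Of 40 replication genes 18 fell and 5 rose (median log2 fold change -0.45), with a count of 10 without wt replicate 1 or 2 and 11 without wt replicate 3 for the falls and of 3 without any 1 wt library for the rises. MCM4, of the replicative helicase, averaged 57.9 ± 4.78 to 26.3 ± 2.3 CPM, RFC3, of the clamp loader, 198 ± 17.3 to 98.9 ± 9.85 CPM, and POLA1, of the primase complex, 252 ± 2.85 to 151 ± 13.5 CPM. TYMS rose (31.4 ± 1.63 to 60.5 ± 5.51 CPM), and PCNA, the clamp, did not pass (414 ± 9.94 to 442 ± 22 CPM). Mitotic genes counted 6 down and 5 up of 41, or 14.6 and 12.2% beside 14.2 and 15.6% of all genes. Among them MAD2L1 and CENPE were lower at 316 ± 18.3 to 167 ± 14 CPM and 302 ± 18.8 to 163 ± 15.2 CPM. The rises numbered 1 without wt replicate 1 or 3 or shDicer replicate 2, 2 without wt replicate 2, 8 without shDicer replicate 1 and 3 without shDicer replicate 3.

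Genes of protein synthesis fell more often than they rose. So did abundant genes of all kinds, with 27.1% lower and 13.7% higher at a mean log2 CPM of 5 or more. Of 52 initiation factors 14 fell and 4 rose (median log2 fold change -0.25). EIF4G2, a scaffold of alternative initiation, stood at 1249, 1283 and 1123 CPM in wt and 503, 584 and 538 CPM in shDicer cells (log2 fold change -1.17 ± 0.08, adjusted p = 8.0e-07). EIF1AX averaged 623 ± 45 to 258 ± 24.8 CPM, EIF5 492 ± 33.4 to 266 ± 19.4 CPM and EIF2B1 82.1 ± 7.77 to 43.3 ± 4.09 CPM, whereas EIF3K and EIF4G3 rose (43.3 ± 1.67 to 88.6 ± 6.47 CPM and 81.2 ± 4.92 to 151 ± 11.8 CPM). Of 77 mitochondrial ribosomal proteins 26 fell and 2 rose (median log2 fold change -0.19), with a count of 14 without wt replicate 1 and 17 without wt replicate 2 for the falls. MRPL1 and MRPS18C averaged 82.7 ± 3.67 to 36.6 ± 4.07 CPM and 82 ± 8.09 to 40.9 ± 4.42 CPM. Of 22 cytosolic aminoacyl-tRNA synthetases 8 fell and 1 rose, YARS1 from 129 ± 8.04 to 45.2 ± 3.34 CPM and GARS1 from 251 ± 9.52 to 126 ± 3.44 CPM among the falls.

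Cytosolic ribosomal proteins did not share 1 direction. Of 81 tested, 12 rose and 15 fell, with a count of 7 without wt replicate 3 for the rises and of 7 without wt replicate 2 and 8 without wt replicate 3 for the falls. RPL22L1, the paralog that can replace RPL22 in the ribosome, fell most (291, 324 and 349 CPM in wt and 24.7, 27.6 and 26.2 CPM in shDicer cells, log2 fold change -3.62 ± 0.09, adjusted p = 7.7e-10). RPS19 rose from 867 ± 11.4 to 1603 ± 155 CPM and RPS27L, also a p53 target, from 50.9 ± 3.47 to 137 ± 14.1 CPM. Ribosomal protein genes have many processed copies in the genome, and the split of reads among them is uncertain.

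Protein folding and turnover genes fell more often than they rose. Of 23 chaperones 7 fell and the other 16 did not pass. HSPH1, a partner of HSP70, stood at 348, 369 and 385 CPM in wt and 155, 194 and 185 CPM in shDicer cells (log2 fold change -1.04 ± 0.09, adjusted p = 3.5e-06), and the chaperonin subunits CCT8 and TCP1 averaged 942 ± 16.4 to 590.3 ± 37.6 CPM and 1016 ± 19.8 to 695 ± 50.3 CPM. Of 35 proteasome genes 12 fell and 3 rose, with a count of 6 without wt replicate 1 and 7 without wt replicate 2 or 3 for the falls. PSMD12, of the regulatory lid, averaged 168 ± 14 to 85.2 ± 10.6 CPM. PSMD5, an assembly chaperone of the proteasome, was 1 of the 3 that rose, from wt levels around the floor of 3 counts (0.184, 0.0918 and 0.316 CPM in wt and 12.8, 14.2 and 13.9 CPM in shDicer cells, log2 fold change 6.17 ± 0.28, adjusted p = 3.4e-08).

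RNA-processing genes also fell more often than they rose. Of 33 SR proteins and hnRNPs, which bind pre-mRNA and set splice sites, 14 fell and the other 19 did not pass (median log2 fold change -0.40). HNRNPD stood at 114, 119.5 and 114 CPM in wt and 47.5, 56.3 and 56.5 CPM in shDicer cells (log2 fold change -1.11 ± 0.08, adjusted p = 1.5e-06), and SRSF11 and HNRNPDL averaged 395 ± 12.9 to 225 ± 13.1 CPM and 675 ± 22 to 348 ± 22.4 CPM. Of 33 exosome and decay genes 11 fell and 3 rose. DIS3, the catalytic subunit of the exosome, stood at 618, 650.0 and 579.5 CPM in wt and 129.5, 151 and 146 CPM in shDicer cells (log2 fold change -2.12 ± 0.08, adjusted p = 1.4e-08). It lies on chromosome 13. EXOSC9 and CNOT7 averaged 143 ± 10.1 to 74.2 ± 3.1 CPM and 242 ± 8.01 to 133 ± 15.9 CPM, while XRN1, the cytoplasmic exonuclease, did not pass (88.3 ± 1.13 to 82.6 ± 8.9 CPM). Small nucleolar RNA host genes fell in 6 of 28 cases, SNHG1 from 358 ± 17.5 to 136 ± 1.13 CPM and SNHG12 from 79.9 ± 6.26 to 34.7 ± 2.96 CPM, and their 3 rises numbered 1 without wt replicate 1 or shDicer replicate 2 and 0 without wt replicate 2 or 3.

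Metabolic genes differed by pathway. Of 21 glycolytic genes 10 rose and 3 fell. ENO2, the neuronal enolase, averaged 3.07 ± 0.65 to 14.9 ± 2.98 CPM, PFKP, a phosphofructokinase, 79.6 ± 5.08 to 245 ± 34.7 CPM and GPI 119 ± 15.7 to 326 ± 17.9 CPM, and the lactate carrier SLC16A1 fell from 309 ± 8.38 to 168 ± 16.9 CPM. PGK1 and the glucose carrier SLC2A1 did not pass (662 ± 3.43 to 603 ± 22.3 CPM and 26.1 ± 1.42 to 32.3 ± 2.74 CPM). Of 25 cholesterol genes 12 rose and the other 13 did not pass (median log2 fold change 0.61), with a count of 7 without wt replicate 1 or 2. HMGCS1, which commits to the pathway, stood at 89.5, 94.8 and 86 CPM in wt and 169, 191 and 182 CPM in shDicer cells (log2 fold change 1.01 ± 0.08, adjusted p = 1.4e-06), and FDPS and IDI1 averaged 112 ± 4.83 to 210.3 ± 7.36 CPM and 176 ± 8.11 to 280.2 ± 17.8 CPM.

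Genes that answer amino acid shortage fell more than they rose, 9 against 4 of 26, with a count of 0 without wt replicate 1 and 2 without wt replicate 2 or shDicer replicate 2 for the rises. The cystine carrier SLC7A11 stood at 108, 121 and 148 CPM in wt and 40.1, 34.2 and 41.4 CPM in shDicer cells (log2 fold change -1.70 ± 0.12, adjusted p = 1.0e-06), the leucine carrier SLC7A5 averaged 29.98 ± 4.43 to 4.95 ± 1.86 CPM and the folate enzyme MTHFD2 509 ± 8.88 to 235 ± 14.6 CPM. ATF4, the factor of this response, averaged 711 ± 23.8 to 381 ± 25.2 CPM and passed (log2 fold change -0.90 ± 0.07, adjusted p = 2.1e-06), with 26.4% of its 31-base words shared with other genes, and ASNS did not pass. Respiratory chain genes of the nucleus fell in 19 of 77 cases and rose in 9, with a count of 5 without any 1 wt library for the rises. UQCRB averaged 327 ± 12.3 to 163 ± 19.2 CPM and NDUFAB1 128 ± 5.15 to 72.9 ± 5.46 CPM among the falls, and ATP5F1A 757 ± 10.8 to 1262 ± 73.1 CPM among the rises. Lysosomal genes went both ways, 9 up and 5 down of 37. The protease gene CTSZ rose from 4.54 ± 0.605 to 47.6 ± 3.8 CPM, and CTSF averaged 8.47 CPM in wt and had 1 count over the shDicer libraries, 362-fold, with a 95% counting interval of 64.4 to 14329.7 in favour of wt.

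Chromatin regulators fell more than they rose, at 23.1 and 10.3%. Genes of all kinds with a mean log2 CPM of 5 or more gave 27.1 and 13.7%. Of 39 genes for Polycomb proteins, H3K9 methylation and DNA methylation 9 fell and 4 rose, with a count of 2 without wt replicate 1 or 2 or shDicer replicate 2 for the rises. RBBP4, a histone-binding subunit of several complexes, stood at 582, 608 and 591 CPM in wt and 195, 219.7 and 221 CPM in shDicer cells (log2 fold change -1.49 ± 0.07, adjusted p = 6.6e-08), and RNF2, a ubiquitin ligase of Polycomb, EED and CBX1, which bind methylated histone H3, averaged 115 ± 4.67 to 53.4 ± 5.74 CPM, 42.7 ± 3.46 to 21.4 ± 1.66 CPM and 153 ± 9.12 to 84.8 ± 7.46 CPM. The methyltransferases DNMT1 and SETDB1 and the Polycomb subunit SUZ12 averaged 103 ± 15.4 to 102 ± 11.4 CPM, 78.4 ± 4.08 to 81.8 ± 6.53 CPM and 182 ± 6.11 to 178 ± 21.5 CPM and did not pass. Among replication-dependent histones, single genes of the chromosome 6 clusters moved in opposite ways. H3C1 fell from 92.2 ± 7.28 to 0.27 ± 0.135 CPM and H1-3 from 317 ± 7.2 to 75.8 ± 3.37 CPM, and H2AC8 and H2BC8 rose from 7.59 ± 0.88 to 112 ± 25.8 CPM and 5.66 ± 0.65 to 83.1 ± 5.39 CPM. Their count was 5 up and 6 down of 52, with a count of 3 without wt replicate 1 and 9 without shDicer replicate 3 for the rises and of 12 without shDicer replicate 1 for the falls.

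C2H2 zinc finger genes, many of them repressors of repeats that lie in clusters on chromosome 19, rose in 97 of 467 cases (20.8%) and fell in 50, with a count of 26 without wt replicate 1, 28 without wt replicate 2 and 29 without wt replicate 3 for the falls. ZNF43 averaged 0.283 ± 0.25 to 16.4 ± 1.9 CPM and ZNF544 0.833 ± 0.204 to 38.9 ± 1.59 CPM. After subtraction of the run medians the list's median was -0.04. Of 10 imprinted genes 2 rose and 3 fell, MKRN3 from 0.403 ± 0.226 to 5.28 ± 1.49 CPM among the rises and the antisense RNA KCNQ1OT1 from 99.3 ± 10.3 to 49.2 ± 6.15 CPM among the falls.

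Factors of development changed gene by gene. Of 31 HOX genes 4 rose and 2 fell, with HOXA9 at 33.5 ± 1.01 to 69.6 ± 9.68 CPM and HOXD8 at 4.38 ± 1.12 to 14.7 ± 1.8 CPM, and HOXC10 and HOXC11 at 3.46 ± 0.537 to 0.26 ± 0.0469 CPM and 7.61 ± 1.26 to 1.41 ± 0.433 CPM. SOX4 rose from 93.6 ± 7.69 to 163 ± 8.71 CPM, the pioneer factor FOXA1 from 2.12 ± 0.435 to 8.72 ± 0.506 CPM and GATA6 from 7.44 ± 0.709 to 18.1 ± 1.87 CPM, and KLF12 fell from 54.2 ± 1.99 to 22.8 ± 3.19 CPM. Neuronal genes were also mixed, 6 up and 6 down of 20, with a count of 3 without wt replicate 1 or 2 or shDicer replicate 3 for the rises and of 3 without wt replicate 1 for the falls. NEFL, the light neurofilament chain, rose (17.6, 13.9 and 18.4 CPM in wt and 756, 310.0 and 297 CPM in shDicer cells, log2 fold change 4.77 ± 0.36, adjusted p = 1.6e-06) and varied among the shDicer libraries, while NEFM, the medium chain of the same filament, fell from 6.27 ± 0.205 to 0.414 ± 0.159 CPM and GAP43, of growth cones, from 2.47 ± 0.666 to 0.259 ± 0.0381 CPM.

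Among solute carriers and potassium channels the share of rises lay near that of all genes and the share of falls below it. Of 228 solute carriers 42 rose and 24 fell, shares of 18.4 and 10.5% beside 15.6 and 14.2% of all genes. SLC40A1, the iron exporter, and SLC30A10, a manganese exporter, rose from 5.66 ± 0.929 to 44.2 ± 6.76 CPM and 0.973 ± 0.405 to 8.43 ± 1.41 CPM, and SLC7A3, a carrier of cationic amino acids, went from 3.92 CPM to no count, at least 18.4-fold lower. The drug exporter ABCB1 stood at 12.6, 8.81 and 9.93 CPM in wt and 69.8, 77 and 79.9 CPM in shDicer cells (log2 fold change 2.85 ± 0.13, adjusted p = 4.1e-08), and ABCA1, the cholesterol exporter, fell from 5.17 ± 1.56 to 0.235 ± 0.158 CPM. Of 34 potassium channels 6 rose and 1 fell, shares of 17.6 and 2.94%. KCNK2 rose from 0.879 ± 0.42 to 15.5 ± 1.83 CPM, and KCNT2 went from 5.27 CPM to no count, at least 24.7-fold lower. The sodium channel gene SCN9A rose from 0.42 ± 0.322 to 23.8 ± 5.03 CPM. RAB27B and RAB38, small GTPases of secretory vesicles, rose from 2.31 ± 0.538 to 20.9 ± 1.93 CPM and 0.557 ± 0.272 to 18.2 ± 1.04 CPM, and RAB3C fell from 5.31 ± 0.772 to 0.151 ± 0.128 CPM.

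By change in CPM rather than in fold, abundant genes stood out. EEF2, the translation elongation factor, rose (1597, 1582 and 1565 CPM in wt and 4655, 3337 and 3072 CPM in shDicer cells, log2 fold change 1.22 ± 0.13, adjusted p = 1.9e-05). It lies on chromosome 19, and shDicer replicate 1 was the highest of the 3. ENO1, an enolase of glycolysis, gained from 1771 ± 25.9 to 3055 ± 359.6 CPM, and ZNF711, a zinc finger gene of chromosome X, stood at 142, 143 and 168 CPM in wt and 949, 1012 and 1340.3 CPM in shDicer cells (log2 fold change 2.87 ± 0.13, adjusted p = 4.4e-08). NPM1, a chaperone of the nucleolus, fell (4629, 4831 and 4371 CPM in wt and 2359.7, 2668 and 2487 CPM in shDicer cells, log2 fold change -0.88 ± 0.08, adjusted p = 3.6e-06).

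Of 1706 long non-coding RNAs tested, 8.56% were higher and 6.57% lower, beside 17% and 15.3% of 12761 protein-coding genes. Genes of all kinds with a mean log2 CPM under 1 gave 8.14% and 4.52%, and the part of the level in this difference was not tested. LINC00667 rose (0.405, 0.403 and 0.774 CPM in wt and 18.9, 15.6 and 19.4 CPM in shDicer cells, log2 fold change 5.03 ± 0.24, adjusted p = 5.1e-08). FIRRE, an RNA of chromosome X that organises nuclear contacts, fell from 46.4 ± 1.2 to 3.98 ± 0.284 CPM, and LINC00324 from 28.8 ± 2.76 to 7.92 ± 3.33 CPM. Small nuclear and small nucleolar RNAs, which carry no poly(A) tail, were lower in 24 of 62 and 22 of 113 cases.

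Within genes, the share of each transcript in the gene's total was compared over 9225 genes with more than 1 tested transcript. Use changed in 89 genes (0.965%) at an adjusted p under 0.001 by edgeR's diffSpliceDGE with Simes' method, in 749 at an unadjusted p under 0.05, and 46 of the 89 did not pass at the gene level. Of these 89 only 21 stayed past the threshold in all 6 fits that left out 1 library, and the genes described in detail here are among the 21. The other tool run, limma's diffSplice, called 128 genes and shared 25 of the 89. It did not call COMMD4, PPME1 or CAST, and RPL22L1 was lost with a replicate block. The estimates of a transcript's share rest on few distinguishing reads for similar transcripts. Of the transcripts with the largest fall in share 16 were annotated as retained introns, compared with 3 of those with the largest rise, and 10 of the rises were annotated as substrates of nonsense-mediated decay, compared with 4 of the falls.

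RPL22L1, whose total fell from 371 to 24.2 TPM, also changed its leading transcript. The coding RPL22L1-202 held 65.6, 63.9 and 61.9% in wt and 17.7, 25.6 and 27.4% in shDicer cells (adjusted p = 5.0e-06), and RPL22L1-204, annotated for nonsense-mediated decay, held 26, 27.3 and 26.6% in wt and 60.8, 51.9 and 53.6% in shDicer cells (adjusted p = 0.0297, over the threshold). The order of the 2 transcripts reversed in all libraries. GAS5, a host gene of small nucleolar RNAs, moved from GAS5-207, a retained-intron form with 22.8, 23.8 and 24.6% in wt and 7.05, 9.29 and 9.24% in shDicer cells, to GAS5-221 with 5.66, 3.07 and 4.45% in wt and 33, 36.8 and 31.1% in shDicer cells (adjusted p = 2.5e-14 for the latter), while its total went from 338 to 144 TPM. The leading transcript differed between every wt and every shDicer library in 94 genes with at least 5 TPM in both groups, most of them without passing the test of use. Among the 89 that passed there were 5 such genes at any TPM. Of these PTGR1 and ZNF558 had under 0.5 TPM in wt, PTGR1 and SEC22C were past the threshold in only 1 of the 6 fits that left out a library, and ZNF558 in 0 of them.

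In other genes a transcript appeared or vanished. COMMD4-201, of an endosomal protein, averaged 0.102% in wt and held 40.3, 26.4 and 28.7% in shDicer cells (adjusted p = 9.5e-09), and PPME1-202, of a phosphatase methylesterase, averaged 0.00372% in wt and held 35.5, 34.3 and 34.5% in shDicer cells (adjusted p = 7.6e-10). In CAST, the inhibitor of calpains, CAST-228 averaged 15.4% in wt and under 0.001% in shDicer cells (adjusted p = 6.5e-10), and CAST-233 averaged under 0.001% in wt and 23.1% in shDicer cells (adjusted p = 3.5e-15). In each of these 3 genes the wt and shDicer libraries did not overlap.

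The 89 included 14 genes picked by symbols that begin like those of ribosomal proteins or translation factors. They were 9.15% of the 153 genes with such symbols tested for use, beside 0.965% of all. The match by symbol was loose, and RPS6KB1, a kinase gene, was among the 14. Of these 14 only 4 stayed past the threshold in all 6 fits that left out 1 library, and 9 did so in at most 3. The split of reads among the processed copies of ribosomal protein genes is uncertain. RPL3-201 held 8.74, 9.87 and 9.58% in wt and 32.2, 27.1 and 20.7% in shDicer cells (adjusted p = 1.3e-10) while the gene total averaged 557 and 554 TPM. HSPD1-202, of the mitochondrial chaperonin, rose from 6.88 to 17.9% and STAG2-202, of cohesin, from 3.27 to 12.7%.

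Wt and shDicer cells were also compared in chromatin-associated RNA, which is enriched in nascent transcripts, with 2 libraries a group from cells labelled HEK293. There the labels gave 72 h of doxycycline to the inducible knockdown lines and named none for wt. The drug, the line with its integrated cassette and the knockdown therefore cannot be told apart in chromatin RNA. Genes shared with mRNA can share the difference of line as well as that of Dicer. The fit held all 8 chromatin RNA libraries, those of Ago2 and Drosha knockdown cells included. Of 32874 genes tested there 11.0% were higher and 10.5% lower in shDicer cells than in wt at an adjusted p under 0.005. Of the 2337 genes higher in mRNA and tested in both, 1380 were also higher in chromatin RNA (59.1%) and 21 were lower. Of the 2134 lower genes 1145 were also lower (53.7%) and 15 higher, where 15.7 and 18.7% of all genes tested in both were higher and lower. In a fit of only the 4 wt and shDicer libraries, 1336 of the higher genes were also higher and 1100 of the lower ones also lower. Without 1 of the wt chromatin RNA libraries, 762 or 655 of the lower genes were also lower. DICER1 itself did not pass in chromatin RNA (log2 fold change -0.18 ± 0.09, adjusted p = 0.166). The miR-17 seed group, with 20.8% higher beside 16.3% of all genes with a 3′ UTR, had a chromatin RNA median of 0.01 beside -0.07. SNAI2, SPARC, KRT19 and ERBB4 moved the same way in both RNA fractions, with log2 fold changes of -4.19 and -3.98 for the first 2 in chromatin RNA.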

How the data were processed

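The libraries were made from RNA of 3 wt and 3 shDicer samples and quantified by the authors with kallisto. The authors deposited estimated counts and TPM per Ensembl transcript, the latter scaled by transcript length and library total. Other upstream tools named in the submitters' notes are Bowtie, TopHat2 and DESeq2, on hg38, with versions not given in the sources used here.

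Estimated counts were summed per gene through GENCODE release 44, which held 89.2% of the 217082 transcripts, and rounded to whole numbers. Samples were grouped by their labels. Genes kept by filterByExpr were scaled by TMM and tested with edgeR 4.0.16 in R 4.3.3 (quasi-likelihood test, Benjamini-Hochberg adjustment, threshold 0.001 in mRNA and, for chromatin RNA, 0.005). The chromatin RNA fit held all 8 chromatin RNA libraries, including those of Ago2 and Drosha knockdown. Levels are CPM over TMM-scaled totals. Transcript use was tested on transcript counts with diffSpliceDGE, and shares are parts of the gene's summed TPM. Sites were searched on the sense strand of 3′ UTRs from the same annotation. Depth was 10216400 to 17216000 counts per library, so a floor of 3 counts lay at 0.272 CPM in wt and 0.214 CPM in shDicer cells on average. Intervals and floors cover counting error only. Scripts were tested on simulated data.

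The gene lists and families were chosen with earlier results of these data known. Named genes were the 15 protein-coding genes with the largest and smallest log2 fold change and the 8 with the largest gain and loss in CPM. The 6 long non-coding RNAs with the largest and smallest log2 fold change were added. All of these were required to have a mean CPM of at least 8 and no overlap between the wt and shDicer libraries. Also named were the 3 extreme called members of each list in each direction, DICER1, and list members named for their role. From these, genes whose call was lost without 1 library were mostly left out of the text, and some other named genes are not reported here. Genes of transcript use were named, after their values were seen, among those kept without each library. Alternatives were DESeq2 1.42.0, limma 3.58.1 for transcript use, library-size scaling, counts scaled from TPM, no filter on low counts, a replicate block, leaving out each library, other thresholds and other site definitions. Small RNA samples were not analysed here.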

Additional observations from a re-analysis of the deposited data

How the results depend on the processing

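DICER1 stayed lower in every fit, with a log2 fold change between -1.54 and -1.43 when 1 library was left out and of -1.22 with counts scaled from TPM. The 2347 higher and 2145 lower genes became 2572 and 2532 with DESeq2. Higher genes numbered 3747 with no filter on low counts, 1563 with counts scaled from TPM, 1436 to 2476 without 1 library and 4485 at an adjusted p under 0.05. Lower genes numbered 1289 to 2216 without 1 library, 4178 at an adjusted p under 0.05 and 688 with a change over 2-fold as well. The 89 genes of changed transcript use became 53 with transcripts of at least 5% of their gene, 33 with protein-coding transcripts only, 42 to 79 without 1 library, 52 with a change of at least 10 points and 308 at an adjusted p under 0.05. The 5 genes with a switched leading transcript became 15 with limma, 1 with protein-coding transcripts only, 3 to 6 without 1 library and 13 at an adjusted p under 0.05. The miR-17 group had 19.99% higher genes with 7-base sites. Lower genes also lower in chromatin RNA numbered 655 to 997 without 1 library. Same-numbered libraries deviated together only weakly, with correlations of 0.066, 0.046 and 0.081, although each wt library correlated best with its own number, so the numbers were not taken as pairs. A replicate block gave 2493 higher and 2280 lower genes, 36 genes of changed use and 2 switches. Of 471 named genes 119 fell below the threshold in at least 1 setting, 86 of them with counts scaled from TPM and 82 without wt replicate 1, and 0 changed sign past the threshold. The causes were not tested. With 2 or 3 libraries a group, small changes of rare genes were not detectable at this depth.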

Other observations

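Some families not described above were also counted, with fewer called members. The 24 tested calcium and sodium channels counted 5 up and 2 down, the falls numbering 1 without wt replicate 1 or 3 or shDicer replicate 3, and the 32 ABC transporters 6 up and 4 down. Of the 13 mRNAs of the mitochondrial genome 3 rose and the other 10 did not pass (median log2 fold change 0.07). The 48 RAB GTPases, switches of vesicle traffic, counted 10 up and 7 down, the falls numbering 3 without wt replicate 1 or 2 or shDicer replicate 2. Among claudins, classical cadherins, fibroblast growth factors with their receptors, and SOX genes, 2 of 3, 2 of 6, 3 of 10 and 2 of 9 tested members were higher, and each of these counts was 1 without at least 1 of the libraries.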
